A study of Mus musculus with 3 samples.

Results

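The genes described here build and maintain the sensory apparatus of the mature inner ear, and mutations in most of them cause deafness. The list holds 39 members, taken by name, out of 21887 protein-coding genes of the mouse annotation, and all 39 were found in it. The peaks of 2 CUT&Tag libraries from mouse otocysts of the stage E10.5, the epithelial vesicles that form the inner ear, were assigned to them.

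A hair cell senses motion through a bundle of actin-filled stereocilia. Myosin motors carry proteins into the bundle, Usher proteins and cadherins link its stereocilia, and tip links pull on the mechanotransduction channel. Around the bundle lie the tectorial and otolithic matrices. Non-sensory cells, coupled by gap junctions, secrete the potassium-rich endolymph, and tight junctions seal it off. At the otocyst stage the epithelium consists largely of progenitors, and hair cells differentiate later. Expression was not measured here, so which members were active in these cells is not known from the lists.

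The otocysts came from wild-type mice, and the cells of 34 of them were pooled after Accutase digestion and split into 3 equal parts. One part received an anti-CHD7 antibody and another an anti-SOX2 antibody. CHD7 is a chromatin remodeler whose gene is mutated in CHARGE syndrome, and SOX2 is an HMG-box transcription factor required for the sensory patches of the ear. A part without any primary antibody served as the control; its library is not analysed here. In CUT&Tag, a transposase tethered to the antibody cuts and tags nearby DNA, and a peak is a stretch where tagged fragments pile up. A peak is not proof of binding, and in a pool of cells a signal from few cells cannot be told apart from a weaker signal in many. The CHD7 list held 33035 peaks and the SOX2 list 155548. Each antibody has 1 library, so nothing below has a replicate check, and the number of reads is unknown. Intervals are exact binomial (Clopper-Pearson) 95% intervals over genes or peaks, which treat each gene or peak as an independent draw and cover counting error only. Of 12 otocyst marker genes, 8 had a CHD7 peak (66.7%, against 30.8% of all genes) and 8 a SOX2 peak (66.7%, against 59.7%) within 1 kb of a gene border. Of 5 supporting cell markers 4 had CHD7 (80%, 28.4% to 99.5%) and 5 had SOX2 (100%, 47.8% to 100%) there. Of 7 hair cell regulators 1 had CHD7 (14.3%, 0.361% to 57.9%) and 4 had SOX2 (57.1%, 18.4% to 90.1%). For the supporting cell markers and the hair cell regulators, the intervals hold the shares of all genes. Peaks do not show whether these genes were expressed.

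A peak was called an end peak when it touched the 1 kb on either side of a gene's outer border, an inside peak when it otherwise touched the gene, and a flanking peak when it lay within 50 kb. These 3 places together make the locus of a gene. CHD7 was at an end of 7 members: the motor gene Myo6, the ankle link gene Adgrv1, the actin rootlet gene Triobp, the matrix gene Coch, the gap junction gene Gjb2, the anion exchanger gene Slc26a4 and the potassium channel subunit gene Kcne1. The 7 of 39 are 17.9% (interval 7.54% to 33.5%), against 30.8% of all protein-coding genes. SOX2 was at an end of 22 members, or 56.4% (39.6% to 72.2%), against 59.7% of all genes. The 7 members with CHD7 at an end also had SOX2 at an end, which is 17.9% against 28.3% of all genes; in 6 the peaks overlapped, and in Kcne1 they lay at opposite borders. The member shares at ends were thus lower than those of all genes for CHD7 and close to them for SOX2, and all 3 background values lie inside the intervals. The relation for SOX2 depended on the setting: with a window of 2 kb 79.5% of members had SOX2 at an end, against 68.6% of all genes, and with the 10000 strongest peaks of each list 5.13% did, against 16.9%. For CHD7 the member share was below that of all genes in both settings, at 17.9% against 34.1% and 7.69% against 13.3%. The other 15 members with an end peak had SOX2 alone, and 17 members had neither protein at an end. Both counts follow from the 3 shares above and are not a separate result.

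Away from the ends most members had peaks. A CHD7 peak lay inside 17 members, or 43.6% (27.8% to 60.4%), against 22.2% of all genes. A SOX2 peak lay inside 35 members, or 89.7% (75.8% to 97.1%), against 56.7% of all genes. The members are long genes, with a median length of 68.5 kb against 17.2 kb for all genes. Counted per length over all gene interiors, the members held 0.936 CHD7 peaks per 100 kb against 0.964 for all genes, and 5.85 SOX2 peaks per 100 kb against 5.83. These totals weigh long genes most. With each gene counted alike, the median inside density of SOX2 was 5.55 peaks per 100 kb over members, against 3.14 over all genes, and that of CHD7 was 0 in both, with an upper quartile of 1.58 over members, against 0. The pooled densities were thus close to those of all genes, while the median per gene was higher for SOX2. End peaks do not count as inside, but the full gene length is the divisor, which lowers the density of short genes most. The medians were not matched for gene length. Within 50 kb, 37 members had a CHD7 peak (94.9%, against 82.9% of all genes), and Ush1c and Otoa had none. SOX2 was within 50 kb of all 39 members (100%, against 98.7%). A CHD7 peak that overlapped a SOX2 peak by at least 1 base, called shared here, lay in the loci of 34 members, or 87.2% (72.6% to 95.7%), against 74.6% of all genes. Each of the 39 loci (100%) held more SOX2 than CHD7 peaks, as did 96.9% of the loci of all genes, the SOX2 list being the longer one. The median locus held 3 CHD7 peaks against 2 for all genes, but 1.43 per 100 kb against 1.54. For SOX2 the median was 12 peaks against 10, or 7.62 per 100 kb against 7.41.

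**Figure D1:**
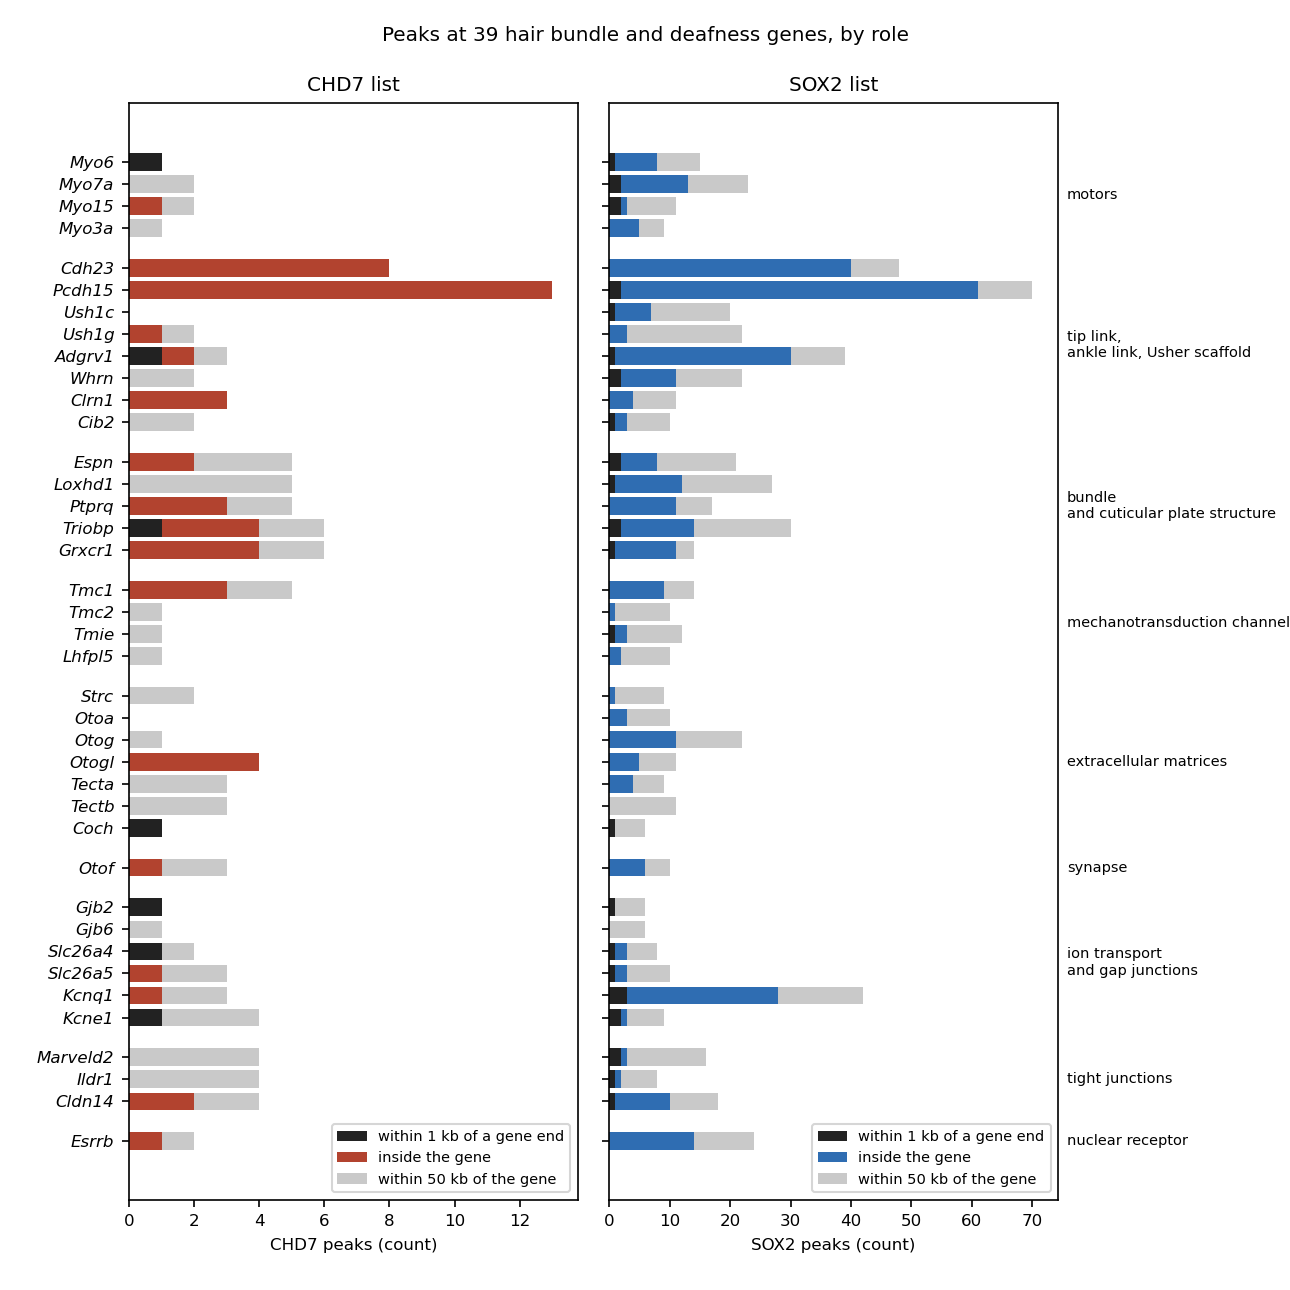
Number of CHD7 peaks (left) and SOX2 peaks (right) at each of the 39 members, grouped by role, with end, inside and flanking peaks stacked. The horizontal scales differ: Pcdh15 has the most of both, with 13 CHD7 and 70 SOX2 peaks, and the 7 members with a black segment on the left are those with CHD7 at an end.

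**Figure D2:**
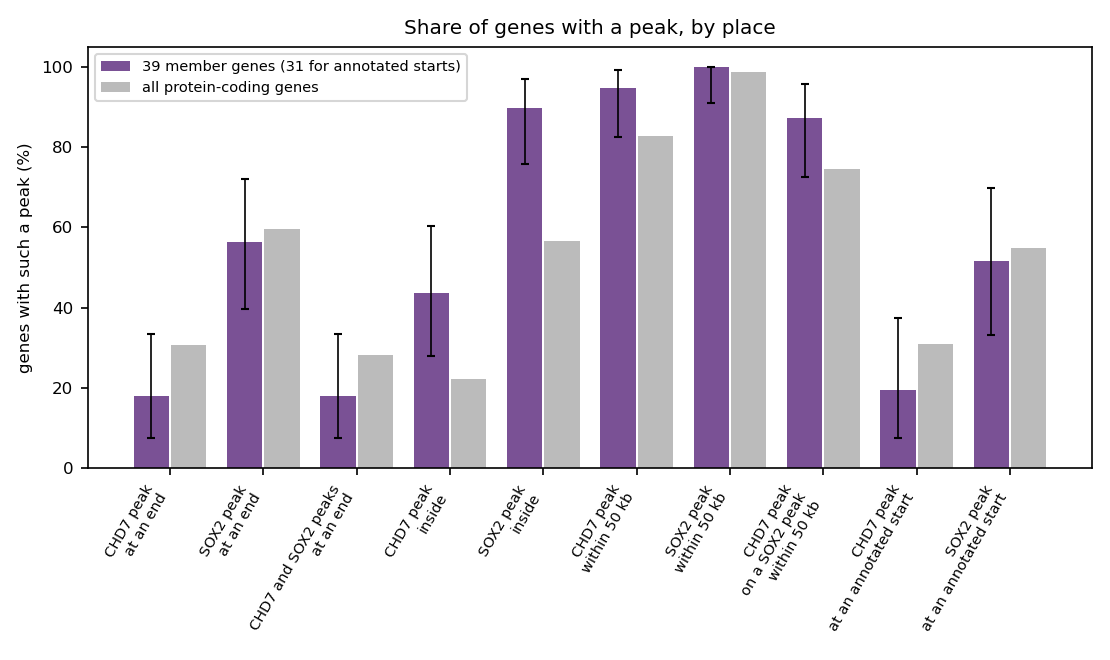
Share of genes with a peak at each place, in percent, for the members (left bar of each pair, with exact 95% binomial intervals) and for all protein-coding genes (right bar). The members lie below all genes for CHD7 at an end (17.9% against 30.8%) and above them for CHD7 inside (43.6% against 22.2%); the inside shares are not corrected for gene length.

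Start sites were known for 31 members, whose promoters (250 bases before to 50 after an annotated start) are in a RefSeq table of the build GRCm38.p6, also called mm10. Ush1g, Tmc2, Otogl, Otof, Kcnq1, Kcne1, Loxhd1 and Ptprq are not in that table. CHD7 was within 1 kb of an annotated start of 6 members, or 19.4% (7.45% to 37.5%), against 31.0% of the 17492 genes with an entry. SOX2 was there in 16 members, or 51.6% (33.1% to 69.8%), against 54.9%. The nearest CHD7 peak lay a median of 27911 bases from a member's start, against 14356 for all genes, and the nearest SOX2 peak 691 bases against 458. Of the 19 members of known strand with SOX2 at an end, 16 had it at the border where the gene starts. Cib2, Cldn14 and Marveld2 had it at the far border alone. Pcdh15 is among the 16 by its gene border, but its annotated start lies further inside, with the nearest SOX2 peak 2417 bases away. The split by border was not counted over all genes.

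**Figure D3:**
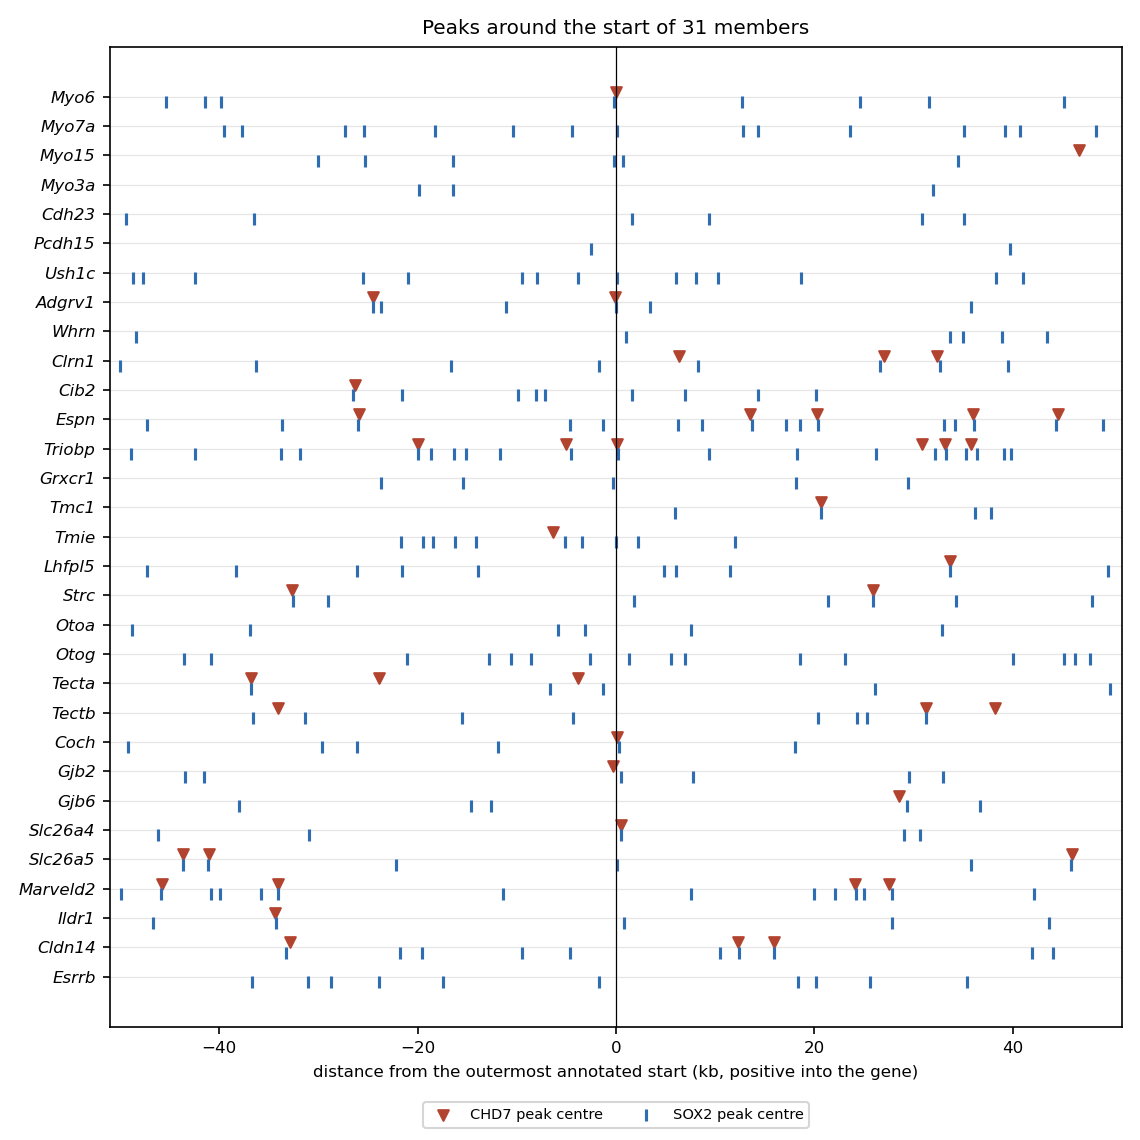
Centres of CHD7 peaks (triangles) and SOX2 peaks (bars) within 50 kb of the outermost annotated start of 31 members, in kb, with positive values pointing into the gene. CHD7 marks stand at the start line for Myo6, Adgrv1, Triobp, Coch, Gjb2 and Slc26a4, and elsewhere most CHD7 marks have a SOX2 bar beside them.

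The promoters of 5 members lay under peaks of both lists, and 1 is shown for each, since these are the places where the proteins were detected together at a member's start. They are given 5′ to 3′ on the gene's own strand, with each CG dinucleotide in capitals. The capitals mark how CpG-rich these starts were, and none of the 5 holds the SOX hexamer searched below.
Myo6, chr9:80164784-80165083, plus strand: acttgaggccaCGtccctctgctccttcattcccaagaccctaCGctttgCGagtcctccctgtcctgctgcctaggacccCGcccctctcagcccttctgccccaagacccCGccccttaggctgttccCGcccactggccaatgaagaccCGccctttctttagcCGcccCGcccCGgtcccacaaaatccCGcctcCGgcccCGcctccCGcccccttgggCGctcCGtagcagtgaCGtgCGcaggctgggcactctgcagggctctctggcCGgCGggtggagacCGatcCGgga
Adgrv1, chr13:81633095-81633394, minus strand: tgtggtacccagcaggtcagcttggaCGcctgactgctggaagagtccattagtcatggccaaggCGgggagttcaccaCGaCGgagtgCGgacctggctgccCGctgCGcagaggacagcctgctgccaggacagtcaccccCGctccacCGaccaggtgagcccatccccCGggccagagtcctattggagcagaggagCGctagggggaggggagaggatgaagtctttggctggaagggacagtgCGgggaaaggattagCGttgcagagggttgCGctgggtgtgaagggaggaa
Triobp, internal start, chr15:78982806-78983105, plus strand: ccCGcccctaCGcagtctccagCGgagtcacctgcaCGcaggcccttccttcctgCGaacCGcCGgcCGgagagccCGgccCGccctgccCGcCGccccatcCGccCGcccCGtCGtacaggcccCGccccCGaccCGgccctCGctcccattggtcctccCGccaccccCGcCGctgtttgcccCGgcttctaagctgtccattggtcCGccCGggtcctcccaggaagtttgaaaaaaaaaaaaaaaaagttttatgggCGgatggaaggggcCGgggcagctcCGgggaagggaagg
Coch, chr12:51593091-51593390, plus strand: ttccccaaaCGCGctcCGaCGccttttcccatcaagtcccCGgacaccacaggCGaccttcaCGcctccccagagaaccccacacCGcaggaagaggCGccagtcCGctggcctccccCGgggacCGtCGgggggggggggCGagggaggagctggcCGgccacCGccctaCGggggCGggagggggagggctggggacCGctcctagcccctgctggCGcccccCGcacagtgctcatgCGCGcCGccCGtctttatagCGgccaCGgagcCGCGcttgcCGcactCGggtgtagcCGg
Slc26a4, chr12:31559935-31560234, minus strand: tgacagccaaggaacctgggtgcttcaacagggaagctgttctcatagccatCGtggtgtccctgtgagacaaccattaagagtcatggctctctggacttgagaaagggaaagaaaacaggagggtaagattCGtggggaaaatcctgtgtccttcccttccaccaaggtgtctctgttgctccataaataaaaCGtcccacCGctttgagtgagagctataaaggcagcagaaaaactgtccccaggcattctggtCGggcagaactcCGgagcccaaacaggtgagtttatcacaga
A pair of matrix gene promoters under neither list is shown for contrast, chosen after their values were seen because they hold the SOX hexamer, here in capitals with the CG dinucleotides.
Otog, chr7:46240737-46241036, plus strand: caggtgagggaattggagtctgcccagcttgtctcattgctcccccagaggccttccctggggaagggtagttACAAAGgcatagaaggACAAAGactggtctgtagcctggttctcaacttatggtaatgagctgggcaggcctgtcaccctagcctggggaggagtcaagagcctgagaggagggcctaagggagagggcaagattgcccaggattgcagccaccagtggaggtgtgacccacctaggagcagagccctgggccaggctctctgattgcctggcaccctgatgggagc
Tectb, chr19:55180476-55180775, plus strand: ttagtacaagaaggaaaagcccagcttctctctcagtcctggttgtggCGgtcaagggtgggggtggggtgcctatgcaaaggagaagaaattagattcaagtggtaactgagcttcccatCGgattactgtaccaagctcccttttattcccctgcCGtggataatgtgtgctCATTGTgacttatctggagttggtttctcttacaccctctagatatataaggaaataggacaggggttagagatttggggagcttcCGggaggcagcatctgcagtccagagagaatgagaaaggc
CG dinucleotides numbered 22 in the Myo6 promoter, 14 in Adgrv1, 29 in Triobp, 32 in Coch and 6 in Slc26a4, against 0 in Otog and 4 in Tectb. The contrast does not hold for all members. The promoters of Whrn and Lhfpl5, also under neither list, have 29 and 28, and the outer Triobp promoter, under both lists, has 9. Otog carries ACAAAG starting 177 and 161 bases before the start of transcription, and Tectb carries CATTGT, the reverse complement of ACAATG, 76 bases before it.

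Over the 40 promoters of these 31 members, 6 lay under both lists (15%), 1 under CHD7 alone (2.5%), 7 under SOX2 alone (17.5%) and 26 under neither (65%). Over 21263 promoters of all genes the shares were 23.6%, 3.73%, 19.7% and 53.0%. Some members have several promoters that overlap each other, so the 40 are not independent. The ratio of observed to expected CpG had a median of 0.342 over member promoters, against 0.567 over all promoters. It was 0.586 over the 6 member promoters under both lists and 0.317 over the 26 under neither, against 0.813 and 0.281 for the same classes of all promoters. Member promoters under both lists ranged from 0.321 (Slc26a4) to 0.842 (the internal start of Triobp). The Gjb2 promoter, the only one under CHD7 alone, had 0.760.

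The SOX core (ACAAAG or ACAATG, either strand) was found in 8 of 40 member promoters (20%), against 25.7% of all promoters of this length. It was in 8 of the 26 under neither list (30.8%, against 31.7%) and in 0 of the 6 under both lists, 0 of the 1 under CHD7 alone and 0 of the 7 under SOX2 alone, against 16.7%, 16.1% and 22.2% of all promoters in these classes. The other letters searched were the E-boxes CAGCTG and CAGATG on either strand, a type bound by the hair cell factor ATOH1, which lay in 15 of 40 member promoters (37.5%, against 27.9%) and in 0 of the 6 under both lists, against 19.7% of all promoters under both. The presence or absence of these letters in 300 bases says nothing by itself about the factor.

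**Figure D4:**
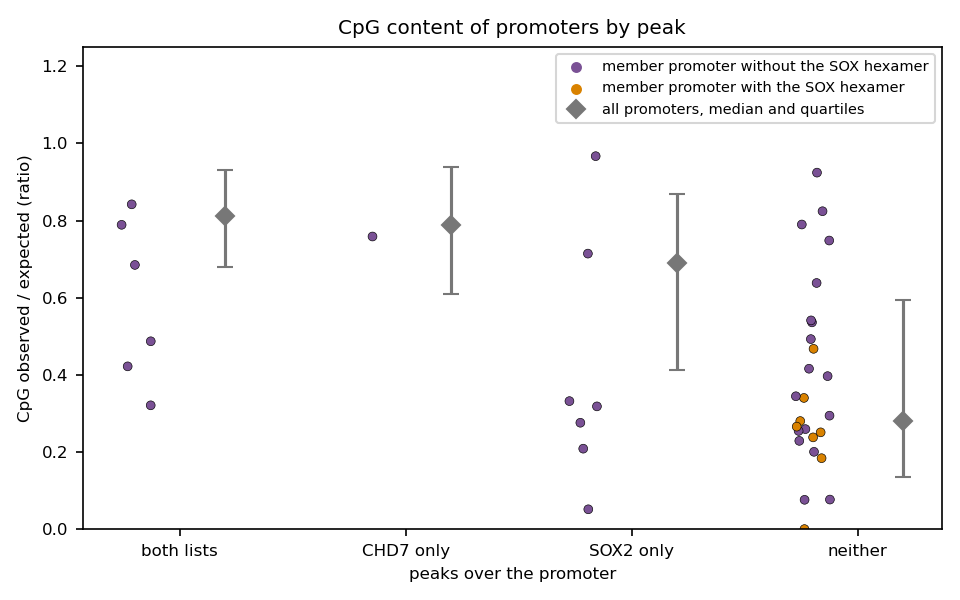
Observed over expected CpG of the 40 member promoters by the peaks over them, with the median and quartiles of all promoters of the same class. Promoters with the SOX hexamer (orange) occur in the class under neither list, and the 6 under both lists lie between 0.321 and 0.842, with a median of 0.586 against 0.813 for all promoters.

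The motors differed in their peaks. Myo6, which encodes the myosin that moves toward the minus end of actin and anchors the stereocilia, had a CHD7 peak over its start at chr9:80164401-80165650 with a total signal of 2072, among the strongest 5.55% of its list. Total signal is the authors' coverage summed over the peak, in their own unit and comparable within a list only. The SOX2 peak there, chr9:80164151-80165500, reached 8328 and ranked among the strongest 0.534%. It was the strongest end pair of all members in both lists, and the CHD7 peak was the only one in the locus. Myo7a, the Usher myosin of the upper tip link insertion, had no CHD7 peak nearer than 43.4 kb from the gene, and its SOX2 end peaks had totals of 1173 and 880. Myo15, which delivers whirlin to stereocilia tips, had SOX2 end peaks of 1232 and 762 at a border shared with Drg2. Myo3a, a myosin of the stereocilia tips, had no end peak, and its single CHD7 peak (592) lay 3.70 kb outside at the end of Gad2. Of the 6 CHD7 peaks in the motor loci 4 were shared.

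Among the tip link, ankle link and Usher scaffold genes CHD7 lay mainly inside the long genes. Adgrv1, the very large adhesion receptor of the ankle links, was the only one of the 8 with CHD7 at an end. Its start peak chr13:81632851-81633750 had a CHD7 total of 1007 (strongest 21.5%), and the SOX2 peak chr13:81632501-81633750 reached 4516 (strongest 1.89%). A further shared peak inside Adgrv1 had 820 for CHD7 and 1173 for SOX2, and another, 23.8 kb outside at the end of Lysmd3, had 1872 and 5337. All 3 CHD7 peaks of Adgrv1 were thus on SOX2. Cdh23, the cadherin of the upper tip link, had 8 CHD7 peaks and 40 SOX2 peaks inside its 394 kb and no CHD7 peak elsewhere in the locus. Of the 8 CHD7 peaks 5 were shared, and the strongest, chr10:60549651-60553050, had 2040 (strongest 5.72%) beside a SOX2 total of 2229. Pcdh15, its partner in the lower tip link, spans 1554 kb and held 13 CHD7 peaks, 6 of them shared, and 59 SOX2 peaks inside. The strongest CHD7 peak of Pcdh15, chr10:73437501-73438800, had 1271 (strongest 14.2%) beside 1378 for SOX2. Per 100 kb of locus Pcdh15 had 0.786 CHD7 peaks and Cdh23 1.62, against the median of 1.54 over all genes.

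The other Usher genes are shorter and had fewer peaks than Cdh23 and Pcdh15, but not always fewer per length. Per 100 kb of locus CHD7 peaks numbered 2.12 in Clrn1, 1.73 in Cib2, 1.69 in Ush1g, 1.10 in Whrn and 0 in Ush1c. For SOX2 the values were 7.79, 8.67, 18.6, 12.1 and 14.0 in the same order, against 9.72 in Cdh23 and 4.23 in Pcdh15. Clrn1, which encodes the membrane protein clarin, had 3 CHD7 peaks inside, 2 of them shared, the strongest with 1321 at chr3:58852251-58853550. Ush1g, the scaffold SANS, had 1 unshared CHD7 peak inside (633) and 1 shared flanking peak (884) at the ends of Fads6 and Fdxr. Whrn, the scaffold whirlin, had 2 flanking CHD7 peaks of 533 and 478, both shared, and SOX2 end peaks of 1290 and 909. Cib2, a calcium-binding partner of the channel, had 2 shared flanking CHD7 peaks, both at ends of other genes (Idh3a and Dmxl2). Ush1c, the scaffold harmonin, had 0 CHD7 peaks in its locus, and its SOX2 peak over the start had 968. Over all 8 genes the loci held 33 CHD7 peaks, 21 of them shared, and 242 SOX2 peaks.

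The bundle and cuticular plate genes held peaks mainly inside or in the flanks. Triobp, whose product bundles the actin rootlets of stereocilia, had a weak CHD7 end peak at chr15:78947501-78948100 with 478, which ranked 84.4% of the way down its list, on a SOX2 peak of 1730. Stronger CHD7 peaks lay further in: chr15:78982501-78984450, over the internal start whose promoter is printed above, had 1412 (strongest 11.6%) beside a SOX2 total of 1202, and chr15:78980701-78981100 had 1517 beside 1759. The CHD7 total at Triobp was thus higher at the internal start than at the outer one, and the total of the SOX2 peak over it was lower. Totals are sums over the peak and the internal CHD7 peak was the wider one, so signal per base is not compared. Espn, an actin-bundling protein, had no CHD7 at an end but a shared inside peak, chr4:152130701-152133600, of 1558 (strongest 9.64%) on a SOX2 peak of 6216 (strongest 0.970%), and all 5 CHD7 peaks of its locus were shared. Grxcr1, a glutaredoxin-like regulator of bundle growth, had 4 CHD7 peaks inside, all shared, the strongest with 1170 beside 2874 for SOX2. Ptprq, a phosphatase of the shaft connectors, had 3 CHD7 peaks inside, 2 of them shared. Loxhd1, a stereociliary protein, had 5 CHD7 peaks, all flanking and 4 of them shared, with totals of up to 2965 (strongest 2.61%) 11.1 kb away and 2382 (strongest 4.22%) 21.5 kb away.

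The mechanotransduction channel genes had 1 to 5 CHD7 peaks each, against a median of 2 over all genes. None of Tmc1, Tmc2, Tmie and Lhfpl5 had CHD7 at an end, against 30.8% of all genes. With 4 genes the interval, 0% to 60.2%, holds that share. The Tmie start alone had SOX2 (1847), at a border shared with Als2cl. Tmc1, a pore-forming subunit, had 5 CHD7 peaks, 3 of them shared, the strongest with 724. Tmc2, the pore subunit used early in hair cell life, had 1 unshared CHD7 peak (446) at the end of Nop56. Tmie, an accessory subunit, had 1 unshared CHD7 peak (638) 5.63 kb outside the gene. Lhfpl5, which links the channel to the tip link, had 1 shared peak (478) 25.6 kb outside. Their 4 loci together held 8 CHD7 peaks, 4 of them shared, and 46 SOX2 peaks. None of the 8 CHD7 peaks was among the strongest 10% of its list, but 8 peaks are too few to read this as a difference.

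The matrix genes ranged from no CHD7 at all to the strongest CHD7 peak of any member. Otogl, an otogelin-like component of the tectorial membrane and of the matrices over the vestibular organs, had a CHD7 peak inside the gene at chr10:107845351-107847350 with 4390 (strongest 1.21%). The SOX2 peak there, chr10:107845351-107847300, had 9823 (strongest 0.375%). Otogl had 4 CHD7 peaks inside, 3 of them shared, and no end peak of either list. Coch, cochlin of the extracellular matrix, had a CHD7 peak over its start with 433, ranked 98.9% of the way down that list, on a SOX2 peak of 1407 (strongest 21.4%), so its call rests on a peak near the bottom of the list. Otog, the otogelin gene, had 1 unshared flanking CHD7 peak (588) and 22 SOX2 peaks. Strc, stereocilin of the top connectors, had 2 shared flanking CHD7 peaks (943 and 528), both at ends of other genes. Tecta and Tectb, which encode the tectorins of the tectorial membrane, had 3 flanking CHD7 peaks each, 1 of the 3 shared in either case; the shared peak near Tectb had 1002 for CHD7 and 4017 for SOX2, 15.4 kb outside the gene. Otoa, which attaches these matrices to non-sensory cells, had 0 CHD7 and 10 SOX2 peaks in its locus. Otof, the calcium sensor of the hair cell synapse, had 3 CHD7 peaks of 838, 519 and 451, 2 of them shared, and no end peak of either list.

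Of the 6 ion transport and gap junction genes 3 had CHD7 at an end (50%, 11.8% to 88.2%). The 30.8% of all genes lies inside that interval. Gjb2, a connexin of the supporting cell network, had a CHD7 peak at chr14:57104401-57105700 with 774 (strongest 35.9%). It covered the promoter, while the SOX2 peak chr14:57104001-57104500 (762, ranked 94.6% of the way down its list) overlapped its edge and began 202 bases inside the gene. Slc26a4, the pendrin anion exchanger of endolymph-regulating cells, had 446 for CHD7 at chr12:31558951-31560000, ranked 93.8% of the way down that list, and 1818 for SOX2 (strongest 12.5%), both covering the start with their outer edge. Kcne1, the accessory subunit of the potassium channel that fills the endolymph, had a CHD7 end peak at chr16:92345651-92345950 with 1198 (strongest 15.6%), the 1 member end peak that was not on SOX2. The SOX2 peaks of Kcne1 (1232 and 938) lay at the opposite border, and a shared flanking peak at the end of Smim34 had 2209 for CHD7 and 3167 for SOX2. Kcnq1, the pore subunit of the same channel, had no CHD7 end peak but 3 SOX2 end peaks of 1935, 1056 and 821, and its strongest CHD7 peak (1612, strongest 9.04%) lay at the ends of Cd81 and Tssc4. Slc26a5, the outer hair cell motor prestin, had SOX2 over its start (1994, strongest 10.4%) and a shared CHD7 peak of 1763 (strongest 7.64%) 40.5 kb away. Gjb6, the neighbouring connexin gene 18.6 kb from Gjb2, had no peak at an end or inside, and the single CHD7 peak of its locus is the one at Gjb2.

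Each of the 3 tight junction genes had 4 CHD7 peaks in its locus, against a median of 2 over all genes. All 12 were shared, against 65.3% of the whole CHD7 list. Cldn14, a claudin of hair and supporting cells, had a pair of peaks inside the gene, chr16:93992351-93993450 with 1485 for CHD7 and chr16:93995451-93997550 with 2728 (strongest 3.08%). Their SOX2 peaks had 13254 (strongest 0.199%), the highest SOX2 total of any member, and 9442 (strongest 0.405%). Marveld2, tricellulin of the corners where cells meet, had its strongest CHD7 peak 45.3 kb outside the gene, chr13:100662301-100663200, with 2409 (strongest 4.14%) beside 7536 for SOX2 (strongest 0.653%). Ildr1, which recruits tricellulin, had flanking CHD7 peaks of 1148, 1047, 884 and 519, and a SOX2 peak of 2346 (strongest 7.52%) at its start. None of the 3 had CHD7 at an end (0% to 70.8%), against 30.8% of all genes. All 3 had SOX2 there (29.2% to 100%), against 59.7%, so both intervals hold the share of all genes. In Cldn14 and Marveld2 the SOX2 end peaks lay at the far border alone. That of Cldn14 was absent with a window of 500 bases. Esrrb, a nuclear receptor needed by endolymph-secreting cells, had 1 unshared CHD7 peak inside (656), and its strongest SOX2 peak (2492, strongest 6.64%) lay over an internal start.

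Counted once each, 118 CHD7 peaks lay in the member loci, and 84 of them, or 71.2% (62.1% to 79.2%), were shared, against 65.3% of the whole list. The share depended on the rule of 1 base: it was 17.8%, against 19.8% of the whole list, when the regions of maximum signal had to share a base, and 48.6%, against 46.4%, among the 10000 strongest peaks of each list. At ends 6 of 7 were shared (85.7%, against 85.7% at the ends of all genes). Inside it was 33 of 52 (63.5%, against 61.7% inside all genes), and in the flanks 45 of 59 (76.3%). Of the 21 flanking peaks that lay at an end of another gene 20 were shared (95.2%, 76.2% to 99.9%). The share at the ends of all genes, 85.7%, lies inside that interval. Of the 38 at no gene end 25 were (65.8%, 48.6% to 80.4%), against 61.7% of flanking peaks of all genes. The flanking peaks of all genes leave out those at an end of or inside any gene, while the 38 may lie inside a neighbouring gene. The inside peaks of all genes leave out those at an end of any gene, while the 52 do not. The CHD7 peaks of Myo3a, Cib2, Tmc2, Strc and Gjb6 all lay at ends of other genes. Among the 118 peaks 13 (11.0%) were in the strongest 10% of the CHD7 list, in the loci of 11 members (28.2%, against 21.6% of all genes, whose loci are shorter): Myo6, Cdh23, Adgrv1, Espn, Otogl, Slc26a5, Kcnq1, Kcne1, Loxhd1, Marveld2 and Cldn14. Myo6 was the 1 member of these with such a peak at its own end.

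The SOX2 list placed 667 peaks in the member loci, and 92 of them (13.8%, 11.3% to 16.6%) were on CHD7, against 14.7% of the whole list. At member ends 6 of 32 SOX2 peaks were on CHD7 (18.8%, 7.21% to 36.4%), against 35.0% at the ends of all genes. These end peaks were also weaker: 3 of 32 (9.38%) were in the strongest 10% of the list against 29.1% at the ends of all genes, and their median total was 1056 against 1320. The 3 were those of Myo6, Adgrv1 and Ildr1. In the wider loci, 33 members (84.6%, against 67.0% of all genes, whose loci are shorter) had a SOX2 peak of the strongest 10%. Tmc1, Tmc2, Lhfpl5, Tecta, Coch and Otof had none. A SOX2 peak of the strongest 1% lay in the loci of Myo6, Espn, Otogl, Marveld2 and Cldn14, and in each of the 5 it was shared with CHD7. How often SOX2 peaks of that strength are shared over the whole list was not counted, so this has no background. These 5 members are 12.8%, against 11.8% of all genes, whose loci are shorter.

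**Figure D5:**
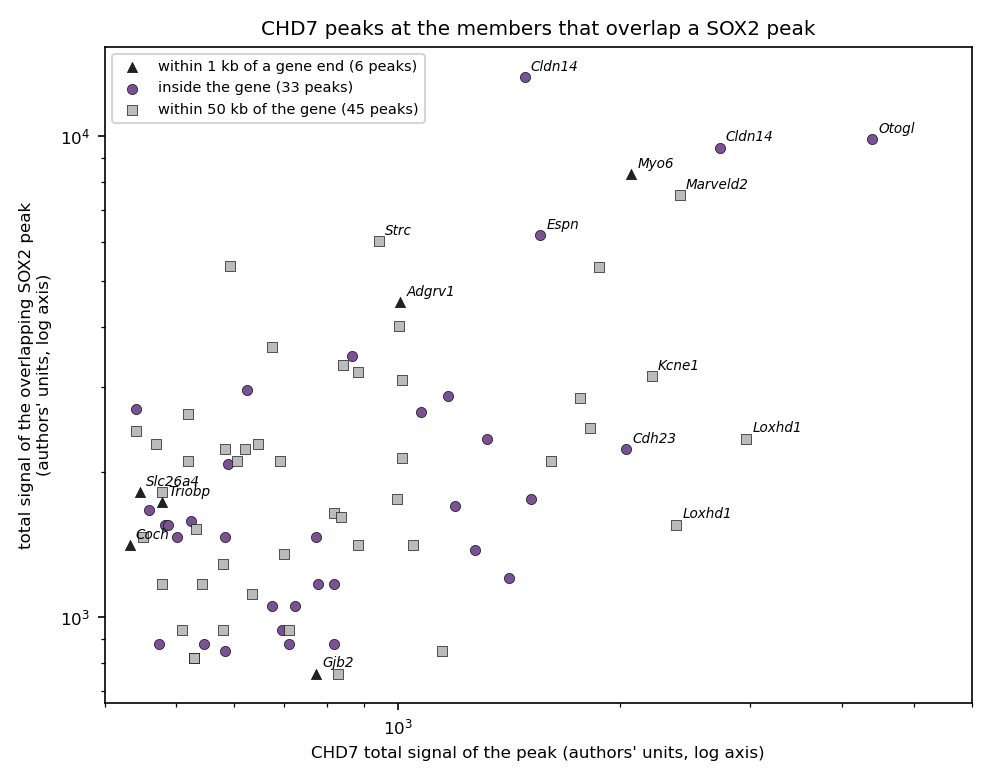
Total CHD7 signal of each of the 84 shared CHD7 peaks of the member loci against the total signal of the SOX2 peak it overlaps, in the authors' units, on log axes, by place. The highest CHD7 value is inside Otogl (4390), the highest SOX2 value inside Cldn14 (13254), and of the 6 end pairs Myo6 is highest on both axes.

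A second list of 50 hair bundle and deafness genes outside the members was counted in the same way, and 49 were found in the annotation. CHD7 was at an end of 9 of them (18.4%, 8.76% to 32.0%) and SOX2 at an end of 28 (57.1%, 42.2% to 71.2%), against 30.8% and 59.7% of all genes, and all 9 had both. By the weaker of their ranks the leading genes were Myh9, a non-muscle myosin (CHD7 signal summed over its end peaks 1530, SOX2 signal 4809), Cldn9, a claudin (920.0 and 4926), and Pnpt1, an RNA-processing exonuclease (1904 and 3313). Tprn, taperin of the stereocilia base (715 and 3372), S1pr2, a sphingosine phosphate receptor (592 and 2786), and Gpsm2, a polarity protein (1061 and 2346), followed.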

How the data were processed

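CUT&Tag libraries for CHD7, SOX2 and no primary antibody came from 1 pool of wild-type otocysts, per the labels' protocols; the control library is not used here. Per the submitters' processing notes, the build was mm10 and the tools were Bowtie2, deepTools and SEACR, with no version; the settings of the peak caller SEACR and the handling of duplicates are not stated in any source. The deposited lists, 1 per library, give each peak's total and maximum coverage signal as the authors' tool wrote them, with unknown scaling, so signal was used only to rank and describe peaks of 1 list. Borders follow bins of 50 bases, and coordinates count from 1.

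Gene borders and promoters came from RefSeq tables of GRCm38.p6; no genome sequence was used. Members and lists were chosen with earlier results of these data known, so counts stand beside all genes with no test. The rule for named genes gave positions and signals in full for members with a CHD7 end peak, a CHD7 peak of the strongest 10% in the locus, or the most shared inside peaks (up to 5), counts for the others, up to 6 other pathway genes with both proteins at an end, and promoters of up to 5 members under both lists and up to 2 under neither. Alternatives were other windows, stricter peak sets and other rules for a shared peak. The counting was tested on simulated data. The tools were pandas 2.3.3, numpy 2.4.6, matplotlib 3.10.9 and scipy 1.17.1 under Python 3.11.15.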

Additional observations from a re-analysis of the deposited data

How the results depend on the processing

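With a gene-end window of 500 bases CHD7, SOX2 and both were at an end of 17.9%, 48.7% and 17.9% of members (28.5%, 52.4% and 25.5% of all genes), and with 2 kb of 17.9%, 79.5% and 17.9% (34.1%, 68.6% and 31.7%). The 2 kb window added Cdh23, Clrn1, Esrrb, Lhfpl5, Otof, Otog, Otogl, Strc and Tecta for SOX2. With the stronger 50% of each list CHD7 was at an end of 4 members, SOX2 of 16 and both of 3, or 10.3%, 41.0% and 7.69% (19.2%, 47.7% and 17.7% of all genes), and the loci held 58 CHD7 and 340 SOX2 peaks. Coch, Slc26a4 and Triobp lost their CHD7 end call there. With the 10000 strongest peaks of each list CHD7 was at an end of 3 members, SOX2 of 2 and both of 2, or 7.69%, 5.13% and 5.13%, against 13.3%, 16.9% and 9.06% of all genes. In that set CHD7 was inside 9 members and SOX2 inside 9, with no share over all genes given for this setting. The loci held 37 CHD7 peaks, 48.6% of them shared, and 38 SOX2 peaks. Loci of 5 kb held 65 CHD7 and 391 SOX2 peaks, and loci of 100 kb 185 CHD7 peaks. The shared share was 56.8% (52.6% of the whole list) when at least 50% of the CHD7 peak had to be covered and 17.8% (19.8%) when the maximum-signal regions had to share a base. Counts fall by construction where fewer peaks or shorter windows enter. No paired analysis was possible because each antibody has 1 library, and for the same reason no library could be left out. Depth and signal scale are unknown, so the number of peaks limits the precision, and the lengths of the lists cannot be compared as binding.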

Other observations

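The highest maximum signal of any member peak was in Myo7a, at chr7:98060001-98060250 in the SOX2 list. The peak is 250 bases wide, against a median of 650 for that list, and reached a maximum of 51.6, against a list median of 3.52, which ranks 119 of 155548. Its total was 5952, and no CHD7 peak overlapped it. The next highest SOX2 maxima of members were 25.2 in the wider peak inside Cldn14 and 22.3 in a peak of 350 bases inside Kcnq1.

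Ush1c and Otog lie 2.50 kb apart on chromosome 7, and 15 SOX2 peaks and 0 CHD7 peaks were counted for both loci. Otogl and Ptprq lie 40.4 kb apart on chromosome 10 and shared 3 SOX2 peaks and 0 CHD7 peaks, so the strong peak inside Otogl was not counted for Ptprq. Gjb2 and Gjb6 shared 5 SOX2 peaks and 1 CHD7 peak.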
